A study of Homo sapiens with 2 samples.

Results

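CDH1, CDH17, CTNNA1, CTNNB1, CTNND1, JUP, DSP, DSG2, EPCAM and TJP1 are epithelial junction genes, a set of 10 among 20046 protein-coding genes, and the IGF2BP3 binding peaks on their mRNAs were examined here. A peak was assigned to a gene when it overlapped by at least 1 bp an exon of any transcript of that gene in GENCODE 44 on hg38. This gave 60 of the 21142 peaks of replicate 1 and 57 of the 20799 peaks of replicate 2. Binding was mapped by LACE-seq, in which UV light fixes proteins to the RNA they touch, an antibody pulls down the protein with its RNA, and the cDNA ends of the trimmed RNA are amplified linearly and sequenced. OE-19 cells, a carcinoma line of the junction between esophagus and stomach, were grown in RPMI1640 with fetal bovine serum. Both samples belong to 1 group with no treatment in the labels, no control library was analysed here, and thus no test between groups could be made. IGF2BP3 binds RNA and is followed by the study as a reader of N6-methyladenosine (m6A) on mRNA.

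Epithelial cells are held together by adherens junctions, desmosomes and tight junctions. In the first, cadherins such as CDH1 (E-cadherin) bind the same protein on the next cell and hold on to the actin cytoskeleton through catenins; in desmosomes, cadherins such as DSG2 are tied to keratin filaments through JUP (plakoglobin) and DSP (desmoplakin). Tight junctions seal the space between cells and are organised by scaffold proteins such as TJP1 (ZO-1). IGF2BP proteins bind mRNA with RRM and KH domains and are known for keeping target mRNAs stable.

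All 10 genes carried exonic peaks in both replicates. Among all protein-coding genes, 37.3% had an exonic peak in replicate 1, 39.0% in replicate 2 and 31.6% in both, a background that includes genes not transcribed in these cells. CDH17 and JUP had the most peaks in both replicates, and EPCAM and CTNNB1 had the fewest in replicate 2. CDH17 had 12 peaks in replicate 1 and 10 in replicate 2, JUP 9 and 10, TJP1 9 and 8, and CDH1 7 and 8. DSG2 had 6 and 4 peaks, CTNNA1 and CTNNB1 4 each in replicate 1 and 3 and 2 in replicate 2, and EPCAM 4 and 1. CTNND1 and DSP had 2 and 3 peaks in replicate 1 and more, 6 and 5, in replicate 2. The mean over the replicates was 58.5 ± 2.12 peaks (SD, n = 2) for the 10 genes together. Long genes offer more room for peaks, so the genes are set against each other below by the share of their mRNA under peaks.

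**Figure D1:**
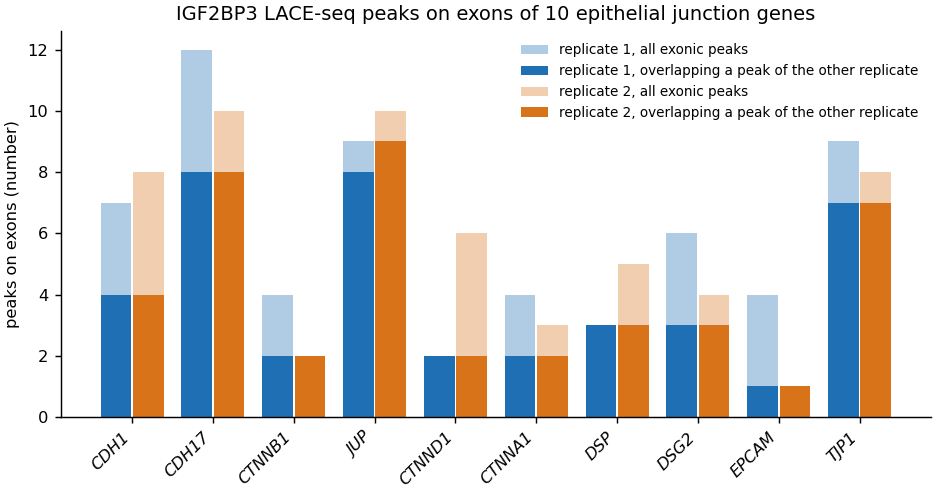
Number of exonic peaks (y axis) of each junction gene (x axis) in replicate 1 (blue) and replicate 2 (orange), with the dark part of each bar giving the peaks that overlapped a peak of the other replicate. Every gene has a dark part in both replicates, from 1 peak in EPCAM to 8 and 9 in JUP.

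The strongest coding-sequence pair of 6 of the genes is printed here to show coding RNA under peaks of both replicates. A pair is a peak of replicate 1 and a peak of replicate 2 that overlap, and pairs were ranked by the lower of their fold enrichment percentiles within each list. Each stretch is the middle of the coding bases that both peaks share, and only that of CTNND1 contains the summits. Of the 6 sequences, each at most 90 nt and read on the gene's strand in hg38, 5 hold CAT before A, C or T, the letters known as an IGF2BP recognition element from crosslinking studies, and these are in capitals. None holds GGAC, the core of the motif named by the study, although 3 of the 6 shared coding stretches have GGAC elsewhere.
JUP: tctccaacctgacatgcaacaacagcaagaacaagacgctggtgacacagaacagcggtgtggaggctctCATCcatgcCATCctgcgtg
CTNND1: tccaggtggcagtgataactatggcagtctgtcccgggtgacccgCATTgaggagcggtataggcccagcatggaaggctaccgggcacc
CTNNA1: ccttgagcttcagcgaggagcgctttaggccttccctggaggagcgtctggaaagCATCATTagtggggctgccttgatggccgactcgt
DSP: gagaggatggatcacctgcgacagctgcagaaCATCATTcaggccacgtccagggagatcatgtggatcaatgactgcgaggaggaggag
DSG2: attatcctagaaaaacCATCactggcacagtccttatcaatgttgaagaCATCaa
TJP1: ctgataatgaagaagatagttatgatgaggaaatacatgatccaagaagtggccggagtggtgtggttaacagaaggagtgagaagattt

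JUP is shown from exon 8 at chr17:41763147-41763236 on the - strand, CTNND1 from exon 6 at chr11:57796699-57796788 (+) and CTNNA1 from exon 7 at chr5:138827534-138827623 (+). The DSP stretch is in exon 7 at chr6:7565371-7565460 (+), that of DSG2 in exon 11 at chr18:31536202-31536256 (+) and that of TJP1 in exon 5 at chr15:29766392-29766481 (-). Exons are numbered along the Ensembl canonical transcript of each gene.

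CDH1, the main cadherin of epithelial cells, had 4 pairs. Fold enrichment is the read pileup at the summit over the local background, with 1 added to both. In exon 3 it was 10.7 in replicate 1 and 10.5 in replicate 2, at pileups of 16 and 15 reads. The backgrounds there were 0.586 and 0.529 reads, and at such low values the added 1 lowers the fold. The exon 7 pair had 6.46 and 6.98, and the exon 16 pair over the stop codon 5.87 and 6.87. These 3 differed little between the replicates. The remaining pair, in the 3′ UTR, rose from 6.26-fold and 39 reads in replicate 1 to 11.2-fold and 64 reads in replicate 2. A peak over the 5′ UTR (10.3-fold) was called in replicate 2 alone, with its summit upstream of the annotated gene start. Peaks covered 39.2% and 29.5% of the CDH1 mRNA.

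CDH17, a cadherin of intestinal epithelium known as LI-cadherin and encoded on the minus strand of chromosome 8, had the most pairs after JUP, 8 in all. Its peaks touched 10 of 18 exons in both replicates and covered 67.7% of the mRNA in replicate 1 and 60.7% in replicate 2. The 3′ UTR was covered to 88.2% and 94.8% by 1 broad peak of 1182 and 1125 bp, at pileups of 91 and 76 reads. The highest fold was in exon 15, with 12.4 in replicate 1 and 12.9 in replicate 2, followed by exon 12 with 10.2 and 10.1. The lowest was in exons 16 and 17, with 4.50 and 4.61 at pileups of 49 reads in both. All 8 pairs kept within 0.29 of each other on the log2 scale, the tightest agreement in fold among the genes with more than 2 pairs. At the summit of the 3′ UTR peak of replicate 2, the 31 bases occur 2 times in the genome, so reads there could come from another place.

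The catenins link cadherins such as CDH1 to actin. CTNNB1 (β-catenin), which also carries Wnt signals to the nucleus, had 2 pairs. Its 5′ UTR had 19 reads at the summit in replicate 1 and 24 in replicate 2, where the fold was 13.3, higher than in replicate 1 by 0.27 on the log2 scale. Exon 9 had 6.90-fold and 8.23-fold. No peak of either replicate touched the annotated 3′ UTR of its canonical transcript. CTNNA1 (α-catenin), the actin-binding member, had 10.6-fold in both replicates at exon 7, with 21 and 19 reads, and 4.68 and 7.11 at the last coding exon. Its 3′ UTR was covered to 36.2% in replicate 1 and not at all in replicate 2. CTNND1 (p120-catenin), which stabilises cadherins at the membrane, had 9.47-fold and 11.1-fold in exon 6 and 5.54 and 5.91 in the 3′ UTR. Every CTNND1 peak also lay on an exon of the same other annotated gene, and from which of the genes these reads came cannot be told apart.

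JUP, a catenin relative found in both adherens junctions and desmosomes, was the most broadly covered, with 72.9% of its mRNA under peaks in replicate 1 and 76.8% in replicate 2, in 11 of 14 exons in both. Its peaks had the highest median pileup and the lowest median fold of the 10 genes. Pileups ran from 73 to 244 reads in replicate 1 and from 113 to 251 in replicate 2, whereas the medians of all peaks on protein-coding exons were 24 and 23. The median fold was 3.58 and 3.20, against 6.94 and 7.98 for the peaks of the other 9 genes. The local background under the JUP peaks had a median of 40.8 reads in replicate 1 and 49.6 in replicate 2, at the 99.6th and 99.8th percentiles of peaks on protein-coding exons, whose medians were 2.29 and 1.97. Since fold divides by this background, the rank of JUP turned with the measure: by fold its exon 9 and 10 pair (1.95 and 2.09) was near the bottom of both lists, and by pileup (124 and 146 reads) it was above every peak of the other 9 genes. Introns of JUP held 1 further peak in replicate 1 and 2 in replicate 2 that touched no exon. How much JUP RNA the cells hold was not measured here, and its part in these pileups was not tested.

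The desmosomal genes differed in where their peaks fell. DSG2, the desmosomal cadherin of simple epithelia, had a pair of broad peaks of 1366 and 1276 bp over its last exon. The fold was 6.85 at 98 reads in replicate 1 and 9.09 at 103 reads in replicate 2. The replicate 1 peak of this pair also lay on an exon of DSG2-AS1. The exon 14 pair of DSG2 had 4.97 and 5.83. In exon 11 the order turned, with 13.2-fold at 32 reads in replicate 1 and 7.98-fold at 18 reads in replicate 2. Replicate 2 alone had a peak over the 5′ UTR and start codon (10.6-fold, 19 reads), whose summit lay upstream of the annotated gene start. Replicate 1 alone had peaks in exons 4, 7 and 9, at 7 to 17 reads. DSP, the large plakin that holds keratin filaments, had peaks over 10.9% and 13.4% of its 9697 nt, the lowest mean share of the 10 genes, and no peak in its 3′ UTR. Its 5′ UTR was fully covered in both replicates, with 8.22-fold at 13 reads in replicate 1 and 18.5-fold at 48 reads in replicate 2. This pair also lay on an exon of DSP-AS1. The other pairs of DSP were in exon 7, with 8.30 and 10.2, and in exon 24, with 5.23 and 4.28.

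EPCAM, a surface glycoprotein of epithelial cells that serves as a carcinoma marker, had 1 pair, at its first exon. The fold was 9.04 at 25 reads in replicate 1 and 18.5 at 68 reads in replicate 2, where it was the only exonic peak. Peaks in exons 3, 5 and 9 at 8.59-fold, 6.32-fold and 10.7-fold were called in replicate 1 alone. TJP1, the tight junction scaffold, had 7 pairs, with peaks on 7 of 28 exons in both replicates. Its 5′ UTR pair rose from 9.12-fold and 18 reads to 14.8-fold and 47 reads, and also lay on an exon of another annotated gene. Exon 21 had 9.84-fold at 121 reads and 10.7-fold at 102 reads, the highest pileups of TJP1. Exon 24 was higher in replicate 2 (8.71 and 12.7), and exons 25 (9.54 and 5.48) and 19 (6.73 and 4.93) were higher in replicate 1, so the pairs of this gene did not move one way.

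**Figure D2:**
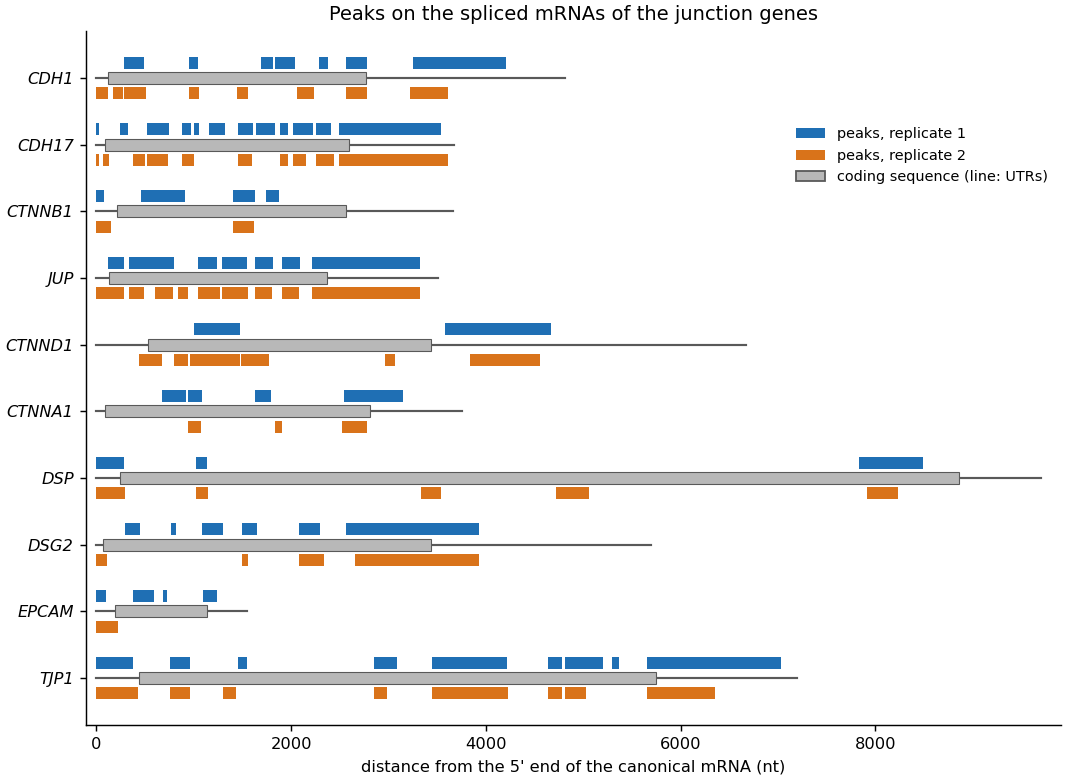
Spliced canonical mRNA of each junction gene (x axis, nt from the 5′ end), with the coding sequence as a grey box, UTRs as lines, and the stretch under each peak of replicate 1 (blue, above) and replicate 2 (orange, below). Peaks that touch only exons of other transcripts (2 of JUP in replicate 1) are not drawn. JUP and CDH17 are covered along most of their length, DSP at few places.

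Set per length, the order of the genes by share of canonical mRNA under peaks was JUP with 74.8% ± 2.76 (SD, n = 2), CDH17 with 64.2% ± 4.99 and TJP1 with 44.7% ± 9.08. CDH1 followed with 34.4% ± 6.83, DSG2 with 33.8% ± 5.68 and CTNND1 with 26.7% ± 4.63. EPCAM had 22.9% ± 12.1, CTNNA1 21.6% ± 13.2, CTNNB1 17.5% ± 10.1 and DSP 12.1% ± 1.71. The replicate values of JUP did not overlap those of CDH17, and those of CDH17 did not overlap those of TJP1. On the exons of all transcripts, however, JUP (60.1% and 66.1%) and CDH17 (64.1% and 57.4%) overlapped. From TJP1 downwards, each gene overlapped its neighbour in the order, and neighbours were not distinguishable from 2 replicates. Some genes further apart in the order did not overlap, such as TJP1 and DSP. Over the exons of all transcripts the median of the 10 genes was 26.8% in replicate 1 and 16.9% in replicate 2, against 11.2% and 10.6% among protein-coding genes with a peak. At least 4 peaks were found on 8 of the genes in replicate 1 and 7 in replicate 2, against 20.6% and 19.3% of protein-coding genes with a peak. In these peaks, more RNA of a gene and more binding per RNA molecule cannot be told apart.

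Most of the peaks had more coding than other exonic bases, although fewer had their summit in coding sequence. By the region that held most of the exonic bases of a peak, 75.0% in replicate 1 (45 of 60, Wilson 95% interval 62.8 to 84.2) and 77.2% in replicate 2 (44 of 57, 64.8 to 86.2) were in coding sequence, against 54.6% and 53.9% of peaks on all protein-coding exons. The 3′ UTR held 11.7% (7 of 60, 5.77 to 22.2) and 8.77% (5 of 57, 3.81 to 18.9), against 30.7% and 24.4%. The 5′ UTR held 10.0% (6 of 60, 4.66 to 20.1) and 14.0% (8 of 57, 7.29 to 25.3), against 9.92% and 17.2%. The summit itself lay in coding sequence for 46.7% in replicate 1 (28 of 60, 34.6 to 59.1) and 33.3% in replicate 2 (19 of 57, 22.5 to 46.3), against 34.9% and 35.0%, inside both intervals. By exonic bases the coding share in both replicates lay above the background and the 3′ UTR share below it, with the background outside the interval, while the 5′ UTR share was near its background. These intervals cover counting error only, peaks on 1 mRNA are not independent, and JUP, CDH17 and TJP1 give 30 of the 60 and 28 of the 57. The region shares count peaks, not length. By share of canonical length under peaks, the 3′ UTR exceeded the coding sequence in both replicates in JUP, CDH17 and TJP1. In JUP it had 84.0% against 71.2% in replicate 1 and 84.3% against 71.6% in replicate 2. It exceeded it in replicate 1 alone in CDH1, CTNND1 and CTNNA1, and in neither in CTNNB1, DSP, DSG2 and EPCAM. Many peaks were wider than the exon they touched, the narrowest being 293 bp, and the summit lay outside the exons of the gene for 33.3% (20 of 60, 22.7 to 45.9) and 43.9% (25 of 57, 31.8 to 56.7), against 26.4% and 25.8%, which is inside the interval of replicate 1 and below that of replicate 2. CDH1, CDH17 and JUP held 15 of these 20 summits and 16 of the 25.

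A stop codon of any transcript was covered by 18.3% of the peaks in replicate 1 (11 of 60, 10.6 to 29.9) and 15.8% in replicate 2 (9 of 57, 8.54 to 27.4), close to the background of 18.9% and 17.1%. The stop codon of the canonical transcript was under peaks of both replicates in CDH1, CDH17, JUP, DSG2 and TJP1, under a peak of replicate 1 alone in CTNNA1 and EPCAM, and under none in CTNNB1, CTNND1 and DSP. Start codons were covered in both replicates in JUP and DSP, and in replicate 2 alone in CDH17, CTNND1, DSG2 and EPCAM. For 6 of the sites covered in both replicates, 30 bases of the spliced canonical transcript around the codon are given, with the codon in capitals. They show which end of each mRNA both replicates reached. In the JUP start stretch the first bases come from exon 1, which no peak of replicate 1 touched. Both CDH1 peaks ended 5 bp into the 3′ UTR, so the last bases of the CDH1 stop stretch were under neither.
JUP start: actcagtagccacgATGgaggtgatgaacc
DSP start: gattgcccgccgacATGagctgcaacggag
CDH1 stop: gcggcgaggacgacTAGgggactcgagaga
JUP stop: accacatgctggccTAGgcggcctggcccc
DSG2 stop: agcattcttactccTAAacagcagtcagcc
TJP1 stop: ttattgaccactttTAActcttgaaatata

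The start codons are at chr17:41771852-41771854 (-) for JUP and chr6:7541916-7541918 (+) for DSP. The stop codons are at chr16:68833497-68833499 (+) for CDH1, chr17:41755744-41755746 (-) for JUP, chr18:31546741-31546743 (+) for DSG2 and chr15:29701595-29701597 (-) for TJP1. The pairs over these stop codons had folds of 5.87 and 6.87 in CDH1 and 4.20 and 4.25 in JUP. The pair of DSG2 had 6.85 and 9.09, and that of TJP1 6.94 and 8.46. These folds belong to the summits, which need not lie at the codon. They were higher in replicate 2 in CDH1, DSG2 and TJP1, and nearly equal in JUP. The CDH17 pair over the stop codon went the other way, with 7.17 and 6.63.

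GGAC within 50 nt of the summit on the gene's strand, a window of 101 nt, was found for 21.7% of the peaks in replicate 1 (13 of 60, 13.1 to 33.6) and 24.6% in replicate 2 (14 of 57, 15.2 to 37.1). Peaks on all protein-coding exons had it in 29.4% and 32.5%, inside both intervals. CAT before A, C or T was in 68.3% of windows in replicate 1 (41 of 60, 55.8 to 78.7) and 64.9% in replicate 2 (37 of 57, 51.9 to 76.0), against 62.3% and 53.3%, again inside both intervals. The only CDH1 windows with GGAC were those of exon 12 in replicate 1 and of the 3′ UTR in replicate 2. A match in a window is no evidence that the protein was bound there, and letters outside the window were not counted.

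Peaks of these genes overlapped a peak of the other replicate in 66.7% of cases in replicate 1 (40 of 60, 54.1 to 77.3) and 71.9% in replicate 2 (41 of 57, 59.2 to 81.9), a mean of 69.3% ± 3.72 (SD, n = 2). The background was 61.9% and 61.5%, within both intervals. JUP kept 8 of 9 and 9 of 10 peaks, and TJP1 7 of 9 and 7 of 8. All 3 peaks of DSP in replicate 1, both of CTNND1 in replicate 1 and both of CTNNB1 in replicate 2 had a partner. In EPCAM 1 of 4 peaks of replicate 1 did. Over the 41 pairs, fold enrichment had a rank correlation (Spearman) of 0.81 between the replicates, and of 0.65 over the 32 pairs outside JUP, against 0.67 over 11198 pairs of all protein-coding genes. These are descriptions over peaks that share genes and local backgrounds, not independent samples. The median absolute difference was 0.23 on the log2 scale in the 41 pairs and 0.27 in all pairs.

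**Figure D3:**
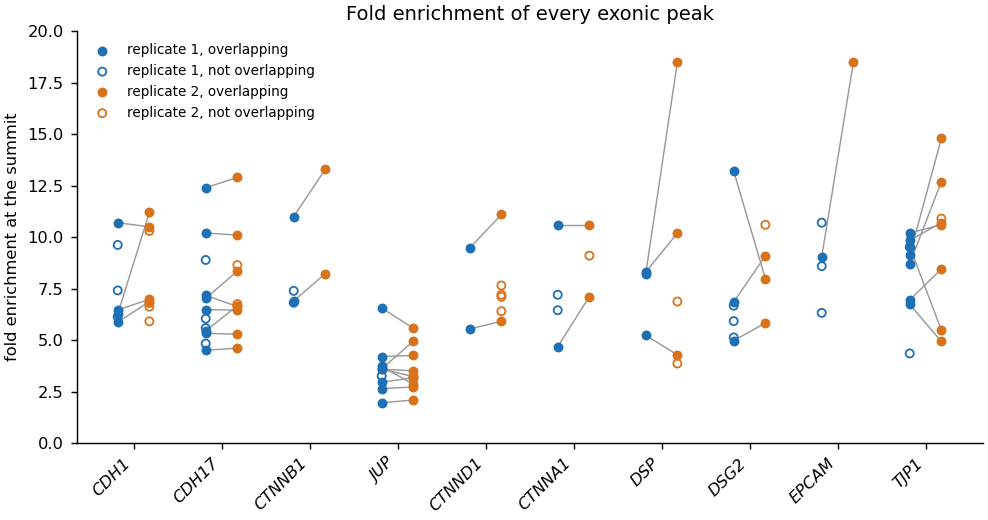
Fold enrichment at the summit (y axis) of every exonic peak by gene (x axis) in replicate 1 (blue) and replicate 2 (orange), with filled points for peaks that overlap a peak of the other replicate, open points for the rest, and grey lines joining pairs. The steepest lines are those of DSP and EPCAM, from 8.22 and 9.04 up to 18.5 in both, while the JUP points stay at or below 6.56.

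The pairs at the 5′ end were mostly higher in replicate 2. Of the 7 pairs whose peaks touched a 5′ UTR in both replicates, 6 had the higher fold in replicate 2, with a median log2 ratio of replicate 2 over replicate 1 of 0.46 and a range of -0.38 to 1.17. DSP (1.17), EPCAM (1.03) and TJP1 (0.70) had the largest. JUP had 0.46 at its 5′-most pair, whose replicate 1 peak touched only an exon of another transcript. The JUP pair over the start codon had -0.38, and CTNNB1 and CDH17 had 0.27 and 0.25. Of the other 34 pairs, 22 were higher in replicate 2, with a median of 0.05. The same split was in the background, where 72.6% of 2061 pairs touching a 5′ UTR and 55.4% of 9137 other pairs were higher in replicate 2, with medians of 0.26 and 0.05.

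**Figure D4:**
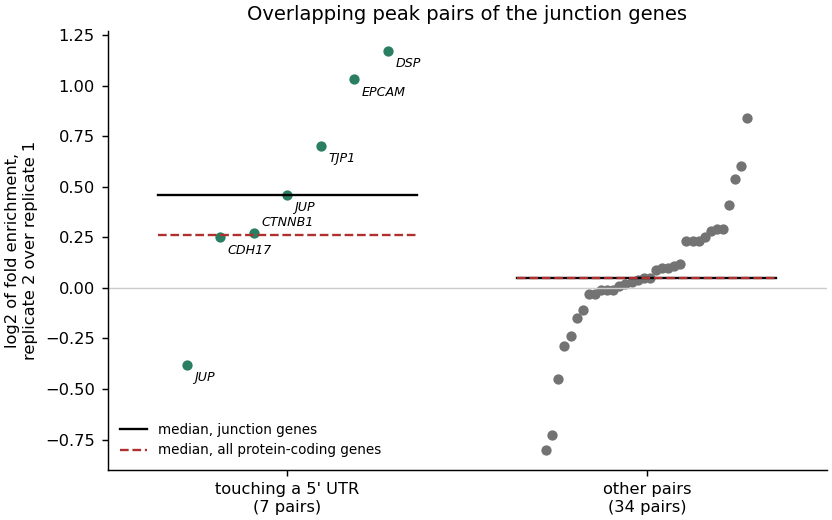
Log2 of the fold enrichment of replicate 2 over replicate 1 (y axis) for each pair of overlapping peaks, split into 7 pairs touching a 5′ UTR (green, with gene names) and 34 other pairs (grey). Solid lines give the medians of the junction genes (0.46 and 0.05) and dashed lines those of all protein-coding genes (0.26 and 0.05).

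A wider list of 41 other junction genes was looked at for comparison. Exonic peaks were found on 29 of them (70.7%) in replicate 1, on 27 (65.9%) in replicate 2 and on 27 in both, and 25 had a pair. The 12 with none were CDH2, CDH3, CTNNA2, CTNNA3, ARVCF, DSG1, DSG3, PKP1, CGNL1, MARVELD2, CLDN18 and GJA1, named after their values were seen, and come from adherens, desmosomal, tight and gap junctions. A gene without a peak may be unbound or not transcribed, which these lists do not separate. Among those whose pairs ranked highest by fold were NECTIN2, an immunoglobulin-type adhesion protein (14.9 in replicate 1 and 19.5 in replicate 2), the desmocollin DSC3 (13.1 and 12.8) and the nectin-binding scaffold AFDN (14.9 and 11.8). Lower in that order were the desmocollin DSC2 (9.46 and 10.8) and the plakophilin PKP2 (9.03 and 13.9). These 5 pairs lay in coding sequence.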

How the data were processed

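IGF2BP3 LACE-seq peak lists of 2 biological replicates of OE-19 cells, 1 group by the labels, were used. The authors called peaks per replicate. Their methods name Bowtie and Piranha, whereas the submitters' processing notes name fastp, HISAT2 and MACS2 with hg38, versions not given in the sources used here, and the deposited files have the layout that MACS2 writes. The deposited fold was read as the ratio of pileup to local background at the summit, with 1 added to both. Significance was deposited as −log10 of the p-value and of the q-value. Depth per library is unknown. The pileup at each summit was recovered from the deposited fold and p-value under a Poisson distribution, for 100% of peaks, and serves as the measure of depth.

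Peaks were intersected with GENCODE 44 exons with Python 3.11.15, numpy 2.4.6, pandas 2.3.3 and pysam 0.24.0, and carry no strand. Each exonic base was classed as coding, then 3′ UTR, then 5′ UTR, then other exon over all transcripts, and a peak took the class with most bases. Background shares are over the 17650 and 17803 peaks on exons of protein-coding genes, each counted for 1 gene. Intervals are Wilson intervals (scipy 1.17.1). The steps were tested on simulated data, with peaks planted on known exons. No test between groups was possible. Alternatives changed the q-value minimum, exons, summit rule, overlap rule, windows and treatment of shared or repeated sequence. The genes named are the 10 members and, of 41 other junction genes, the 6 with the highest-ranked pairs, of which 1 is not reported here. The members and lists were chosen with earlier results of these data known, and the CAT motif was added after the data were seen. Protein sequences were not used here.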

Additional observations from a re-analysis of the deposited data

How the results depend on the processing

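Of 63 alternative values other than single replicates, 16 moved by more than the limit set for them. That limit was 1 SD between the replicates for shares and folds and 1.5 times for counts and 5′ UTR ratios. None was scored as reversed. The q-value setting required a −log10 q of at least 5, while the lowest among the 10 genes was 5.65 in replicate 1 and 7.03 in replicate 2. It thus kept all their peaks and was no check on their values. With canonical exons only, the coding share was 78.3%, stop codon cover 10.4% and exonic length under peaks 32.2%, against 76.1%, 17.1% and 21.9% as means of the replicates. Requiring the summit in an exon left 36.0 peaks per replicate, with 75.6% overlapping, 70.6% coding, 15.3% in 3′ UTR and 29.4% with GGAC. Leaving out peaks on exons of another gene gave 78.5% coding and took away CTNND1, so that 9 genes remained in both replicates. Overlap was 59.9% when reciprocal over at least 50% of each peak and 39.3% when summits lay within 50 bp. By the class at the summit, a mean of 40.0% were coding and 8.60% in 5′ UTR. In replicate 2 alone this coding share was 33.3%, below the background of 35.0%. A summit within 200 nt of a stop codon was found for 12.8%. GGAC was in 9.43% of windows of 25 nt to each side and in 19.6% around the peak middle. Taking 1 replicate at a time gave 57 to 60 peaks, 66.7% to 71.9% overlapping, 75.0% to 77.2% coding, 8.77% to 11.7% in 3′ UTR, 10.0% to 14.0% in 5′ UTR, 15.8% to 18.3% at stop codons, 21.7% to 24.6% with GGAC, median folds of 6.70 to 6.98, and 16.9% to 26.8% of exonic length, the last being 26.8% without replicate 2. Genes with peaks in both replicates cannot be counted with 1. For pairs at 5′ UTRs, 2 other definitions chosen after seeing the data gave median log2 ratios of 0.49 and 0.46. JUP had the highest mean cover on canonical and on all exons. For the moved values other than those that drop peaks or shorten windows by construction, the cause was not tested. No paired analysis was possible because there is 1 group. With 2 replicates and no control library, neither a test nor an estimate of unspecific signal could be made, and folds at 7 to 20 reads are the least certain.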
